A study of Arabidopsis thaliana with 12 samples.

Results

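The 10 Arabidopsis thaliana genes described here encode the enzymes that make the sugar donor of starch and polymerise it: the granule-bound starch synthase GBSS1, the soluble starch synthases SS1 to SS4, and the subunits of ADP-glucose pyrophosphorylase, ADG1 and APL1 to APL4. They were taken by locus code, with no threshold on their values, and all 10 were found among the 19522 genes of the expression table. Messenger RNA came from whole seedlings 4 days old, which had grown in liquid half-strength MS medium lacking glucose under equal periods of light and dark. Col-0-Glc is the wild type accession Col-0 left without glucose, and Col-0+Glc is Col-0 given 15 mM glucose for 2 h. The groups ein2-5-Glc and ein2-5+Glc are the ein2-5 mutant under the same treatments, a single mutant allele of EIN2 in the Col-0 background. EIN2 is a membrane protein through which the ethylene signal passes from the receptors to the nucleus. Each group held 3 libraries. The labels' treatment field names glucose for every sample, so the groups follow the sample titles, and the hour of the day at which seedlings were collected is not given in the sources used here.

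Starch in Arabidopsis is built inside plastids. ADP-glucose pyrophosphorylase joins glucose 1-phosphate and ATP into ADP-glucose, and works as a tetramer of small subunits, encoded by ADG1, and large subunits, encoded by APL1 to APL4, which tune its regulation. The soluble synthases extend the branched chains of amylopectin, GBSS1 makes the mostly unbranched amylose inside the granule, and SS4 helps to start new granules. In leaves starch is laid down by day and used at night, and several of these genes are known to respond to sugars or to the circadian clock.

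Levels were deposited as CPM, that is, reads per 1000000 of a library. Whole reads could be recovered from them, 11470134 to 17461274 in each library, and no member had fewer than 33 reads in any library. EIN2 transcripts lay between 104.848 and 137.055 CPM in Col-0 and between 43.38 and 60.215 CPM in ein2-5, so each library followed its genotype label. Green tissue markers, all 9 detected, summed to 54168 to 58684 CPM in Col-0-Glc, 45110 to 47799 in Col-0+Glc, 34841 to 47864 in ein2-5-Glc and 28549 to 37918 in ein2-5+Glc. Root markers, all 10 detected, summed to 53.8 to 60.7, 85.8 to 93.1, 93.8 to 117.7 and 141.5 to 200.2 CPM in the same order. The 12 seed reserve and late embryo markers, of which 1 stood at 0 in Col-0+Glc, summed to 1.1 to 161.3, 1.5 to 3.3, 777.7 to 1352.7 and 144.5 to 3437.2 CPM. These marker levels moved with the groups, and their part in the results below was not tested. In RNA from whole seedlings, fewer cells of a type and less RNA per cell cannot be told apart. Within groups the seed markers stood at 161.3 CPM in Col-0-Glc 1 against at most 5.7 in its companions, and at 2199.8 and 3437.2 CPM in ein2-5+Glc 2 and 3 against 144.5 in ein2-5+Glc 1. Results are also given without these 3 libraries, called the set-aside libraries below, where that changes them. They were set aside for seed marker sums above those of a companion in their own group. The ein2-5-Glc libraries, with higher seed marker sums than Col-0-Glc 1, were kept. Over all genes ein2-5+Glc 2 and 3 were closest to each other (Pearson r = 0.9909 on log2(CPM + 1)). The library kept, ein2-5+Glc 1, was less like them (0.9775 with 2 and 0.9688 with 3). Leaving out the set-aside libraries thus removes the 2 that resemble each other. It leaves ein2-5+Glc with 1 library, ein2-5+Glc 1, so the values of that group in that setting show no spread of their own. The scaling between libraries mattered as well. The median log2 change of all genes was 0.19 for glucose in Col-0, 0.15 for the genotypes without glucose and −0.11 for the difference of the glucose responses. TMM scaling, which adjusts for composition on the premise that most genes do not change, brought these medians to 0.01, −0.00 and 0.02. With that scaling 60.5% of all genes still had a limma adjusted p below 0.05 for glucose in Col-0. By that count the premise was not met there. What shifted the median as deposited was not tested. Changes are therefore also stated relative to that median.

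GBSS1 and APL3 had the largest glucose responses of the 10 genes in both genotypes, so the sequences around their annotated starts are shown. Each runs from 250 bases before the RefSeq transcript start to 20 bases after it, on the gene's own strand, in the TAIR10.1 assembly. GBSS1 covers chr1:11923847-11924116 on the minus strand and APL3 chr4:18259297-18259566 on the plus strand. The capitals mark the core ACGT shared by many binding sites of bZIP and bHLH factors.
GBSS1: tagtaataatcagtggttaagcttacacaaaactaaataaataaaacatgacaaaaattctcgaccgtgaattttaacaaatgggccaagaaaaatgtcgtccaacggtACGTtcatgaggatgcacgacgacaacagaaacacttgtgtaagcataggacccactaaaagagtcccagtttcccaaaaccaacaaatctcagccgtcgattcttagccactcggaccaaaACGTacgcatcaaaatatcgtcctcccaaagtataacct
APL3: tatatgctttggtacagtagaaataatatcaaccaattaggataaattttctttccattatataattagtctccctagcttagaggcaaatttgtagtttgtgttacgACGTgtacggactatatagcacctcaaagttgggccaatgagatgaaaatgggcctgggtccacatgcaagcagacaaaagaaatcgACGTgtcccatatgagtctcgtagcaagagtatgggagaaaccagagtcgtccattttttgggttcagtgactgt
Both windows held ACGT at 2 places. Windows of the same length at 27443 annotated genes held it in 46.6% of cases, so its presence does not set these genes apart. Also searched on both strands were the G-box CACGTG, which contains ACGT and stood in 7.02% of all windows, the evening element AAAATATCT (2.57%), the CCA1-binding site AAAAATCT (7.15%), the TATCCA element (14.7%), the sucrose-responsive element AATAGAAAA (2.74%) and the telo box AAACCCTA (5.12%). The GBSS1 and APL3 windows held none of these 6. The G-box was found in the windows of SS1, SS3 and SS4, and SS4 carried it at 2 places. Those of SS4, a gene that fell with glucose, lie on the plus strand at chr4:10081998-10082027. The full SS4 window of 270 bases overlaps 1 other annotated gene, and the overlap of this shorter stretch was not examined. Here the capitals mark the G-box.
SS4: agaataCACGTGgcgtaacCACGTGacttt
TATCCA was matched in SS4 and AATAGAAAA in SS2, each on the other strand, and the windows of APL1 and APL2 held none of the 7 motifs. A match describes these letters and not a bound site.

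Glucose in Col-0 addressed how the pathway of the wild type moved when sugar was supplied. GBSS1 transcripts were 11.0 times as high with glucose as without, those of APL3 5.94 times, APL2 2.76 times and APL4 2.02 times, while SS4, the granule-starting synthase, fell to 0.686 of its level without glucose. Of the 10 members 6 were called higher and 1 lower by limma at adjusted p below 0.05, where 60.3% of all genes were called in either direction, 40.6% higher and 19.7% lower. The median log2 change was 0.41 over the members and 0.19 over all genes. With TMM scaling 4 members were called higher and 2 lower, and all genes split into 30.6% higher and 29.9% lower. A share of 7 in 10 in this background is not a result about the members as a set, and the changes of single members are described below. Differences are on the log2(CPM + 1) scale with SE, which understates the change of low genes.

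Among the large subunits, APL1 is the principal form of leaves, and APL3 and APL4 are better known from sink tissues. APL3 (AT4G39210, chromosome 4, 18259547 to 18263468 on the plus strand) stood at 2.50, 2.63 and 3.67 CPM in Col-0-Glc and at 16.9, 18.1 and 17.3 CPM in Col-0+Glc. It stood at 9.26, 9.0 and 13.98 CPM in ein2-5-Glc and at 39.1, 47.0 and 40.7 CPM in ein2-5+Glc. The groups took the order Col-0-Glc, ein2-5-Glc, Col-0+Glc, ein2-5+Glc, and no neighbours in it overlapped. The log2 rise with glucose was 2.24 ± 0.156 in Col-0 (limma adjusted p = 6.53e-08), 2.05 relative to the median of all genes, and 1.90 ± 0.156 in ein2-5 (limma adjusted p = 1.92e-06). APL3 was also higher in ein2-5 than in Col-0, by 1.56 ± 0.156 without glucose (limma adjusted p = 5.49e-06) and by 1.23 ± 0.156 with glucose (limma adjusted p = 4.8e-05), or 3.66 and 2.42 times in mean CPM. As deposited it was the one member higher in the mutant in both media by this test. Without the set-aside libraries the log2 difference of GBSS1 with glucose was 0.84, which rests on the 1 library then left in ein2-5+Glc.

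APL2 (AT1G27680, chromosome 1, 9631190 to 9634597 on the plus strand) stood at 10.7, 9.51 and 9.34 CPM in Col-0-Glc and at 28.6, 26.6 and 26.3 CPM in Col-0+Glc. In the mutant it stood at 14.7, 15.1 and 15.3 CPM without glucose and at 23.8, 23.8 and 22.7 CPM with glucose. The mutant libraries lay above those of Col-0 without glucose and below them with glucose, and the 4 groups did not overlap. The log2 rise was 1.38 ± 0.0829 in Col-0, or 1.19 relative to all genes (limma adjusted p = 1.97e-08), and 0.61 ± 0.0829, or 0.52 relative to all genes, in the mutant (limma adjusted p = 0.000102). Without glucose ein2-5 exceeded Col-0 by 0.56 ± 0.0829 (limma adjusted p = 0.000111). With glucose the difference of −0.20 ± 0.0829 missed the threshold (limma adjusted p = 0.0575), and with TMM scaling it was −0.23 (limma adjusted p = 0.0212), over a range of 0.0161 to 0.327 across the alternatives.

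APL4 (AT2G21590, chromosome 2, 9238296 to 9242481 on the plus strand) was the lowest member per base of transcript. It had 2.43, 2.92 and 2.86 CPM in Col-0-Glc, against 6.07, 5.36 and 5.15 CPM in Col-0+Glc. The ein2-5 libraries had 3.22, 3.40 and 2.74 CPM without glucose and 3.80, 3.33 and 2.88 CPM with glucose. The Col-0+Glc libraries stood above all 9 others, which overlapped among themselves. APL4 rose in Col-0 by 0.80 ± 0.127 (limma adjusted p = 0.000104), 0.61 relative to all genes, and had a log2 difference of 0.07 ± 0.127 in ein2-5 (limma adjusted p = 0.677). With glucose it was lower in ein2-5 by −0.59 ± 0.127 (limma adjusted p = 0.00212), and −0.44 without the set-aside libraries (limma adjusted p = 0.103, 0.0011 to 0.103 over the alternatives). It rests on 33 to 102 reads per library. An unnamed gene, AT2G21595, overlaps APL4 on the other strand, as do others at SS2, SS3 and APL1, and with no strand setting given their reads cannot be told apart.

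APL1 (AT5G19220, chromosome 5, 6463824 to 6466831 on the minus strand) stood at 110, 117 and 113 CPM in Col-0-Glc, and at 111, 107 and 99.4 CPM in Col-0+Glc. The values in ein2-5 were 111, 83.2 and 73.8 CPM without glucose and 96.1, 66.4 and 59.5 CPM with glucose. The glucose differences of −0.10 ± 0.163 in the wild type and −0.28 ± 0.163 in the mutant missed the threshold (limma adjusted p = 0.631 and 0.193). With glucose APL1 was lower in ein2-5 by −0.54 ± 0.163 (limma adjusted p = 0.016), and its libraries did not overlap with those of Col-0. That difference was −0.14 without the set-aside libraries (limma adjusted p = 0.636), and it lost its call without Col-0+Glc 1, ein2-5+Glc 2 or ein2-5+Glc 3 (limma adjusted p = 0.0517, 0.0605 and 0.0759, 0.000507 to 0.636 over all alternatives). Without glucose the genotypes differed by −0.36 ± 0.163 (limma adjusted p = 0.0812), and by −0.53 with TMM scaling (limma adjusted p = 0.0125), with adjusted p from 0.00497 to 0.293 over the alternatives.

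ADG1 (AT5G48300, chromosome 5, 19570238 to 19572804 on the plus strand), the catalytic small subunit, was the most abundant member per kilobase in each group. It stood at 292, 302 and 295 CPM in Col-0-Glc and at 400, 399 and 383 CPM in Col-0+Glc. The ein2-5 libraries stood at 336, 276 and 276 CPM without glucose and 369, 314 and 265 CPM with glucose. All Col-0+Glc libraries were above all others, and the other 3 groups overlapped. The rise in Col-0 of 0.41 ± 0.117 (limma adjusted p = 0.00842) was 0.22 relative to all genes, and with TMM scaling it was 0.20 and not called (limma adjusted p = 0.13), with adjusted p between 0.000145 and 0.148 over the alternatives. In ein2-5 the difference was 0.09 ± 0.117 (limma adjusted p = 0.57). With glucose ADG1 was lower in ein2-5 by −0.33 ± 0.117 (limma adjusted p = 0.034), a call that was lost without the set-aside libraries (−0.09, limma adjusted p = 0.672). It was also lost in turn without Col-0+Glc 1, 2 or 3 (limma adjusted p = 0.0857, 0.0862 and 0.0564) and without ein2-5+Glc 2 or 3 (limma adjusted p = 0.0745 and 0.15), and the range over all alternatives was 0.00321 to 0.672.

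**Figure D1:**
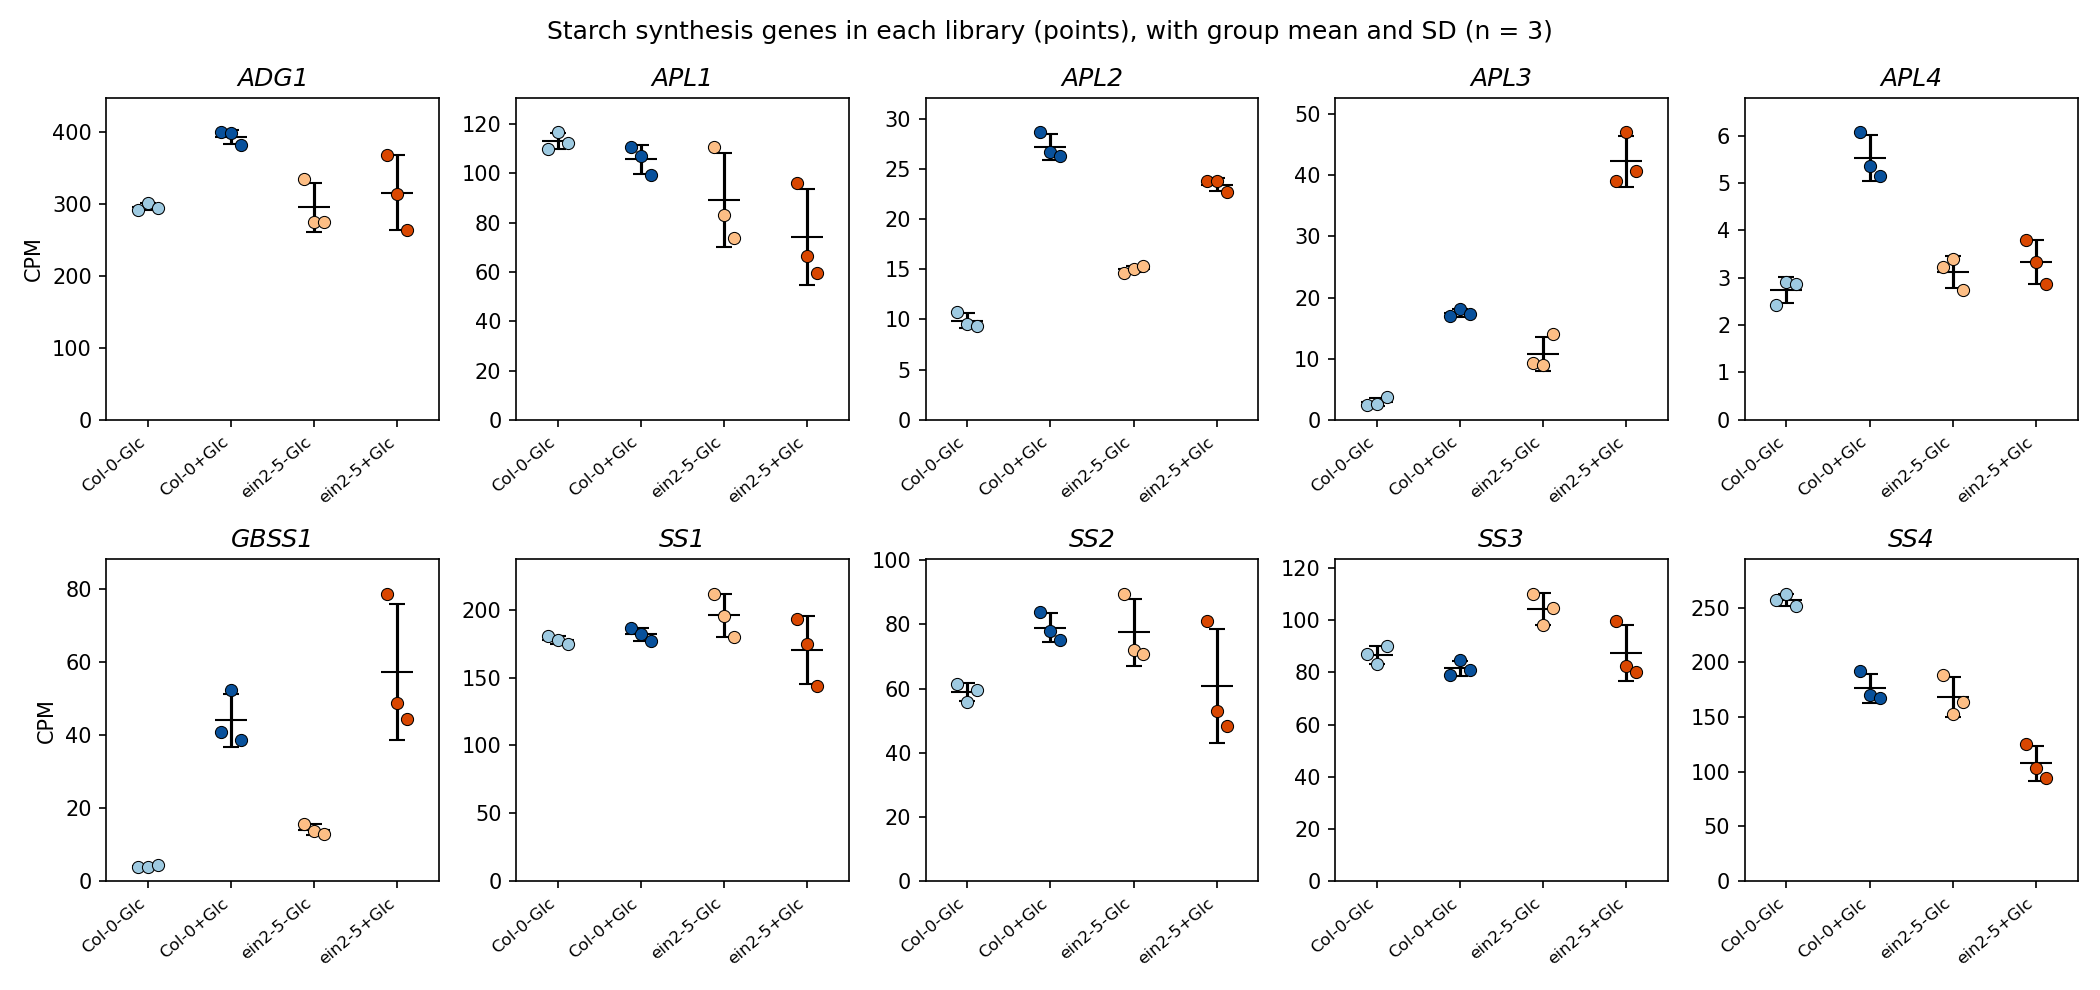
Expression of the 10 genes in each of the 12 libraries, in CPM on linear axes that start at 0 and differ between the gene panels. Points are libraries, and lines with bars are group means with SD (n = 3). GBSS1, APL2 and APL3 stood higher with glucose in both genotypes without overlap, APL4, ADG1 and SS2 in Col-0, and SS4 stood lower with glucose in both.

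GBSS1 (AT1G32900, chromosome 1, 11920390 to 11923866 on the minus strand) had the widest fold range of the starch synthases. It stood at 3.93, 3.72 and 4.30 CPM in Col-0-Glc and at 40.9, 52.3 and 38.6 CPM in Col-0+Glc. In the mutant it stood at 15.7, 13.7 and 12.9 CPM without glucose and at 78.6, 48.8 and 44.3 CPM with glucose. Without glucose the mutant was above Col-0 in every library, and with glucose the genotypes overlapped. The log2 rise was 3.16 ± 0.179 in Col-0 (limma adjusted p = 1.24e-08), 2.97 relative to all genes, and 1.91 ± 0.179 in ein2-5 (limma adjusted p = 5.84e-06). Without glucose ein2-5 exceeded Col-0 by 1.60 ± 0.179 (limma adjusted p = 1.38e-05), or 3.54 times in mean CPM. With glucose the difference was 0.34 ± 0.179 (limma adjusted p = 0.135). It was 0.84 without the set-aside libraries, where ein2-5+Glc 1, at 78.6 CPM, alone stands for its group. The libraries left out of that group stood at 48.8 and 44.3 CPM. Without ein2-5+Glc 3 alone the difference was 0.50 (limma adjusted p = 0.0468), and adjusted p ran up to 0.586 across the alternatives.

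SS4 (AT4G18240, chromosome 4, 10082108 to 10087203 on the plus strand) had differences of the opposite sign in each of these comparisons. It stood at 257, 263 and 252 CPM in Col-0-Glc and at 192, 170 and 167 CPM in Col-0+Glc. The ein2-5 values were 189, 153 and 164 CPM without glucose and 125, 103 and 94.2 CPM with glucose. The unsupplied wild type was thus highest and the supplied mutant lowest, and the groups between them overlapped. SS4 fell with glucose by −0.54 ± 0.11 in Col-0 (limma adjusted p = 0.000807) and by −0.65 ± 0.11 in ein2-5 (limma adjusted p = 0.000499), −0.73 relative to all genes in both. It was lower in ein2-5 by −0.61 ± 0.11 without glucose (limma adjusted p = 0.000519) and by −0.72 ± 0.11 with glucose (limma adjusted p = 0.000206). These calls held under each alternative tried, and without the set-aside libraries the fall in ein2-5 was −0.42 (limma adjusted p = 0.0481, the highest over the alternatives).

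SS2 (AT3G01180, chromosome 3, 62245 to 66111 on the minus strand), which extends chains of intermediate length, stood at 61.4, 55.8 and 59.6 CPM in Col-0-Glc and at 83.9, 78.0 and 75.0 CPM in Col-0+Glc. The ein2-5 libraries had 89.6, 72.1 and 70.8 CPM without glucose and 81.1, 52.9 and 48.5 CPM with glucose. Both glucose differences were near the threshold and had opposite signs. The rise in Col-0 was 0.41 ± 0.155 (limma adjusted p = 0.0332), 0.23 relative to all genes, and with TMM scaling it was 0.21 and not called (limma adjusted p = 0.238). It also lost its call without Col-0-Glc 1, 2 or 3 (limma adjusted p = 0.0522, 0.097 and 0.0651) and without Col-0+Glc 1 or 2 (limma adjusted p = 0.0968 and 0.0671). The range over all alternatives was 0.000612 to 0.282.

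In ein2-5 the glucose difference of SS2 was −0.37 ± 0.155 and not called (limma adjusted p = 0.0682), was called after TMM scaling (−0.43, limma adjusted p = 0.0294), and was 0.07 without the set-aside libraries (limma adjusted p = 0.75). Deviations of same-numbered ein2-5 libraries correlated at 0.569, 0.132 and 0.427, over genes with a mean of at least 1 CPM. A block for that pairing in the ein2-5 libraries was added after the data were seen. With it the differences of SS2 and of APL1 were called (−0.37 and −0.28, limma adjusted p = 0.0126 and 0.0332). The values of both genes without ein2-5+Glc 1, the highest library of its group, were −0.60 and −0.48 (limma adjusted p = 0.000573 and 0.0102). Over the alternatives the adjusted p ran from 0.000573 to 0.75 for SS2 and from 0.0102 to 0.653 for APL1. Without glucose SS2 differed between the genotypes by 0.38 ± 0.155, which was not called (limma adjusted p = 0.0547, 0.00403 to 0.251 over the alternatives). With glucose SS2 was lower in ein2-5 than in Col-0 by −0.41 ± 0.155 (limma adjusted p = 0.0457) with overlapping libraries. Leaving out any library other than ein2-5-Glc 1 or ein2-5+Glc 1 lost this call, with adjusted p up to 0.196 and differences from −0.63 to −0.26, and without the set-aside libraries it was 0.04.

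Over all libraries SS1 ran from 144 to 212 CPM and SS3 from 78.9 to 110 CPM. SS1 (AT5G24300, chromosome 5, 8266566 to 8271205 on the plus strand), which makes the short outer chains of amylopectin, had means of 178 ± 2.85, 182 ± 4.68, 196 ± 15.8 and 171 ± 25.0 CPM (SD, n = 3) in Col-0-Glc, Col-0+Glc, ein2-5-Glc and ein2-5+Glc. No neighbouring groups in the order of its means were apart, and none of the 4 pairwise differences was called. After TMM scaling the glucose difference was −0.18 in Col-0, against 0.03 as deposited, and in ein2-5 it was −0.27 and called (limma adjusted p = 0.035), against −0.21 as deposited (limma adjusted p = 0.122, 0.013 to 0.945 over the alternatives). SS3 (AT1G11720, chromosome 1, 3951366 to 3957044 on the plus strand), which extends longer chains, had means of 86.8 ± 3.40, 81.6 ± 2.98, 104 ± 6.0 and 87.4 ± 10.8 CPM (SD, n = 3) in the same order. It was higher in ein2-5 without glucose by 0.26 ± 0.089 (limma adjusted p = 0.0252), 0.12 relative to all genes, and with TMM scaling by 0.09, not called (limma adjusted p = 0.363, 0.00704 to 0.442 over the alternatives). It fell with glucose in ein2-5 by −0.26 ± 0.089 (limma adjusted p = 0.0325) although the libraries overlapped, and by −0.06 without the set-aside libraries (limma adjusted p = 0.732, 0.00211 to 0.732 over the alternatives). In Col-0 the fall of SS3 was −0.09 as deposited (limma adjusted p = 0.412) and −0.30 after TMM scaling, where it was called (limma adjusted p = 0.00765, 0.0023 to 0.637 over the alternatives). These calls of SS3 were also lost on leaving out single libraries, with adjusted p from 0.0684 to 0.118 for the fall in ein2-5 (without ein2-5-Glc 1 or 3, or ein2-5+Glc 2 or 3) and from 0.0566 to 0.0919 for the genotypes (without Col-0-Glc 1 or 2, or ein2-5-Glc 1 or 3).

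The other comparisons gave these counts. Glucose in ein2-5 called 3 members higher and 2 lower, with 42.9% of all genes called, 26.5% higher and 16.4% lower, and the median log2 change was −0.07 over the members and 0.09 over all genes. With TMM scaling 3 members were higher and 4 lower, against 22.8% and 20.3% of all genes. Between the genotypes without glucose 4 members were higher in ein2-5 and 1 was lower, with 51.3% of all genes called, 35.3% higher and 16.0% lower, and medians of 0.20 and 0.15. With TMM scaling 3 members were higher and 2 lower, against 26.3% and 27.3% of all genes. Relative to all genes, the differences without glucose were 1.45 for GBSS1, 1.42 for APL3, 0.42 for APL2 and −0.76 for SS4. With glucose 1 member was higher in ein2-5 and 5 were lower, with 47.0% of all genes called, 26.1% higher and 20.9% lower, and medians of −0.27 and 0.02. With TMM scaling 1 was higher and 6 were lower, against 25.2% and 24.0% of all genes. Without the set-aside libraries 3 members and 21.7% of all genes were called in that comparison. The 2 comparisons within a medium share libraries with the glucose comparisons, so their calls are not independent of each other.

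Whether the mutant responded to glucose differently from Col-0 was tested as an interaction, with Col-0 subtracted from ein2-5. It was called in 4 of the 10 members, all negative, where 18.8% of all genes were called, 5.49% positive and 13.3% negative (9.59% and 9.19% with TMM scaling, where 4 members were called, also all negative). The median was −0.33 over the members and −0.11 over all genes. GBSS1 had −1.26 ± 0.254 (limma adjusted p = 0.00458), that is −1.15 relative to all genes, and −0.75 without the set-aside libraries (limma adjusted p = 0.0624). Its adjusted p ranged from 9.49e-05 to 0.0624 over the alternatives. APL2 had −0.77 ± 0.117 (limma adjusted p = 0.000881), −0.66 relative to all genes, and kept its call without the set-aside libraries (−0.80, limma adjusted p = 0.0113, 0.000208 to 0.0113 over the alternatives). On the log2 scale these genes rose in both genotypes, by less in the mutant, in which both already stood higher without glucose. In mean CPM GBSS1 went from 3.98 to 43.9 in Col-0 and from 14.1 to 57.2 in ein2-5. For GBSS1 the smaller rise is thus one of ratio and not of mean CPM gained. APL2 went from 9.85 to 27.2 CPM in Col-0 and from 15.0 to 23.4 CPM in ein2-5, a smaller rise on both scales.

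APL4 differed in response by −0.73 ± 0.179 (limma adjusted p = 0.0132) and by −0.52 without the set-aside libraries (limma adjusted p = 0.181), and DESeq2 on recovered reads gave −0.76 (adjusted p = 0.087), over a range of 0.00753 to 0.181. SS2 differed by −0.79 ± 0.219 (limma adjusted p = 0.0241) and by −0.37 without the set-aside libraries (limma adjusted p = 0.226). Its call was also lost in edgeR (−0.62, adjusted p = 0.0618) and without any one of 6 libraries, namely Col-0-Glc 2, Col-0+Glc 1 and 2, ein2-5-Glc 1 and ein2-5+Glc 2 and 3, with limma adjusted p from 0.05 to 0.062 (0.000318 to 0.226 over all alternatives). For ADG1 the difference was −0.32 ± 0.166 (limma adjusted p = 0.205), and −0.44 and called without ein2-5+Glc 1 (limma adjusted p = 0.0367, 0.0367 to 0.842 over the alternatives). For APL3 it was −0.34 ± 0.22 (limma adjusted p = 0.319), and for SS4 −0.10 ± 0.156 (limma adjusted p = 0.687), which TMM scaling turned to 0.05. For the pair with the largest responses, the difference of GBSS1 was thus called and that of APL3 was not, and the 2 differences were not compared with each other.

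**Figure D2:**
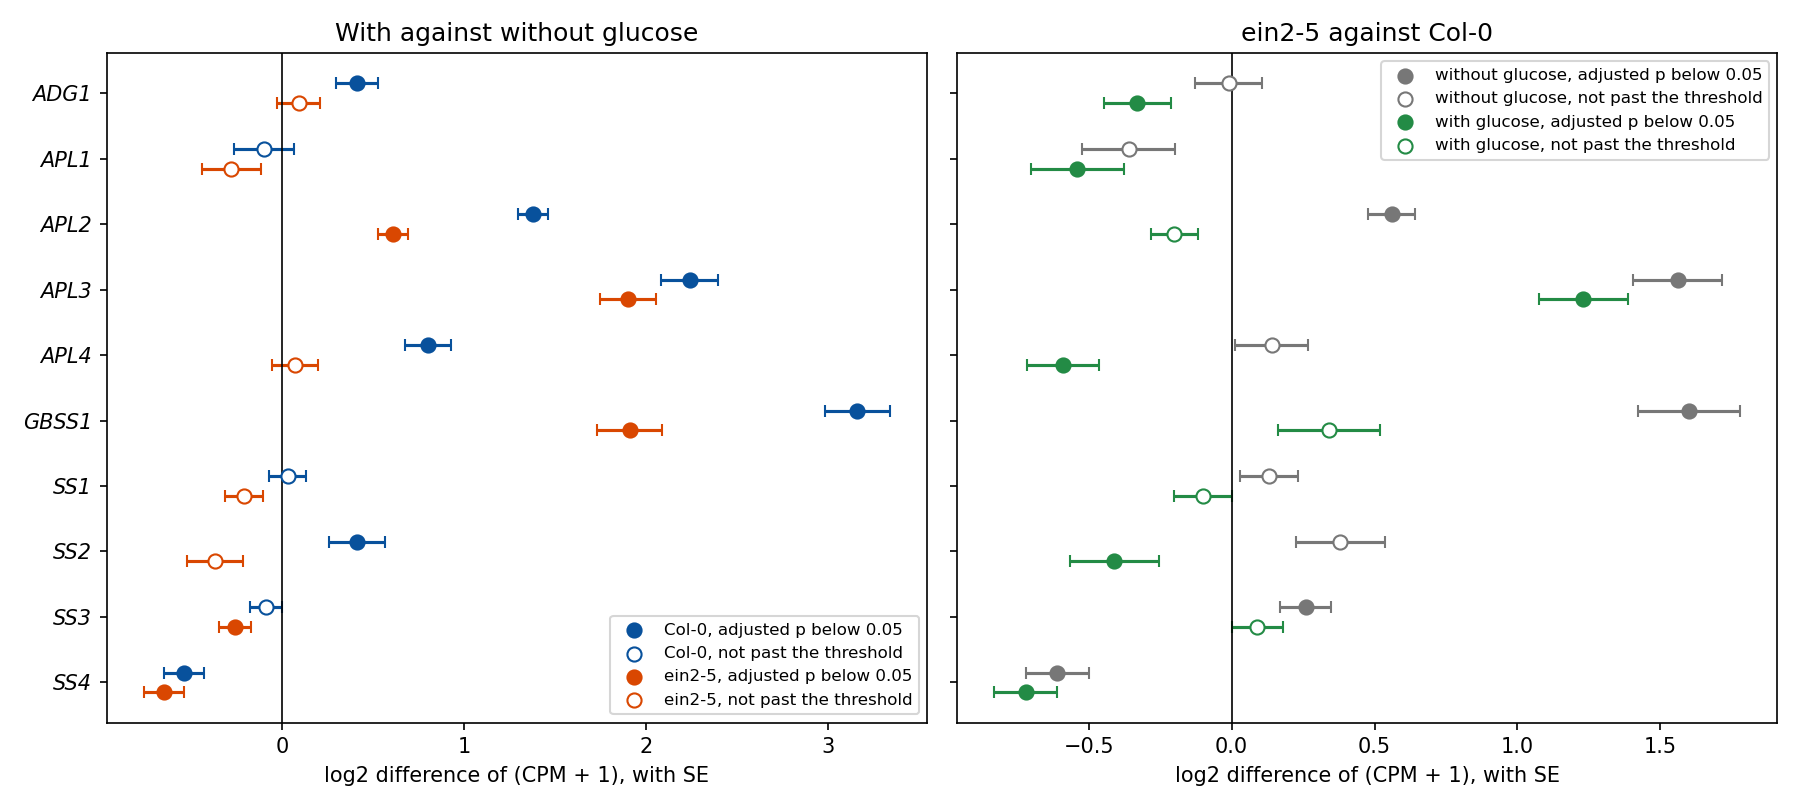
Log2 differences of the 10 genes on the log2(CPM + 1) scale as deposited, with SE bars from limma, for glucose against none in each genotype (left) and ein2-5 against Col-0 in each medium (right), filled where adjusted p was below 0.05. GBSS1 and APL3 lie farthest to the positive side for glucose in both genotypes, and SS4 lies below 0 in all 4 comparisons.

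Levels of different genes were compared per kilobase of exon. In Col-0-Glc, ADG1 led with 156 ± 2.59 CPM per kb (SD, n = 3), followed by SS4 at 75.7 ± 1.64, SS1 at 66.6 ± 1.07 and APL1 at 65.3 ± 1.91, of which the last pair overlapped. SS3 and SS2 followed at 22.9 ± 0.896 and 19.5 ± 0.943 CPM per kb and APL2 at 4.60 ± 0.35 CPM per kb. GBSS1, APL3 and APL4 closed the order at 1.74 ± 0.127, 1.39 ± 0.303 and 0.99 ± 0.0975 CPM per kb. The ranges of GBSS1 and APL3 overlapped, but within each library GBSS1 was above APL3. In ein2-5+Glc, GBSS1 stood at 34.3, 21.3 and 19.3 CPM per kb. These values overlapped those of SS3 (21.1 to 26.3), APL3 (18.6 to 22.3) and SS2 (16.0 to 26.8 CPM per kb). Within each library GBSS1 was above SS2, and the 4 genes otherwise had no firm order there.

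The make-up of each enzyme family was compared within libraries, where the scaling between libraries has no part. Among APL1 to APL4, APL1 made up 90.3% ± 0.491 of the summed CPM per kb in Col-0-Glc and 72.7% ± 0.594 in Col-0+Glc (SD, n = 3). In ein2-5 its share was 79.1% ± 4.75 without and 56.4% ± 6.68 with glucose. The share of APL3 was 1.93% ± 0.422 in Col-0-Glc, 9.88% ± 0.617 in Col-0+Glc, 8.14% ± 3.05 in ein2-5-Glc and 27.2% ± 5.02 in ein2-5+Glc. APL2 went from 6.37% ± 0.614 to 15.1% ± 0.385 in Col-0 and from 11.0% ± 1.82 to 14.7% ± 1.73 in ein2-5. Averaged over the genotypes, glucose moved the share of APL1 by −20.2 points, of APL3 by 13.5 points and of APL2 by 6.22 points. Each had p = 0.005 in a two-sided exact permutation test of the glucose labels within genotype, the smallest that the 400 relabellings allow, and an adjusted p of 0.009 over the 9 shares tested. The share of APL4 went from 1.37% ± 0.109 to 2.38% ± 0.117 in Col-0, without overlap, and from 1.76% ± 0.253 to 1.61% ± 0.0334 in ein2-5, with overlap (SD, n = 3). Averaged over these moves of opposite sign it did not pass (0.428 points, exact permutation p = 0.085, adjusted p = 0.109). A share falls when another member rises, so these 4 shares are not independent of each other.

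Among the synthases, GBSS1 made up 0.932% ± 0.0729 of the summed CPM per kb in Col-0-Glc, 10.2% ± 1.57 in Col-0+Glc, 3.37% ± 0.0901 in ein2-5-Glc and 15.0% ± 2.1 in ein2-5+Glc (SD, n = 3). SS4 held 40.6% ± 0.848, 27.8% ± 1.40, 27.2% ± 1.18 and 19.4% ± 0.674 in the same order. By group means SS4 held the largest share in Col-0-Glc and SS1 in the other 3 groups. Glucose moved the share of GBSS1 by 10.5 points and that of SS4 by −10.3 points, each with exact permutation p = 0.005 and adjusted p = 0.009. The shares of SS1, SS2 and SS3 moved by −0.158, 0.817 and −0.842 points (exact permutation p = 0.875, 0.39 and 0.08), and none passed. For SS2 this average joins moves of opposite sign, from between 9.93% and 10.8% without glucose to between 13.6% and 14.4% with it in Col-0, and from between 13.6% and 14.8% to between 11.2% and 13.6% in ein2-5. Within a single genotype, 3 libraries against 3 cannot reach the threshold in an exact permutation test, and no such test was run. GBSS1 stood at 0.0261 ± 0.00222 of the level of SS1 in Col-0-Glc and at 0.281 ± 0.0464 in Col-0+Glc, and at 0.0838 ± 0.00251 and 0.386 ± 0.0774 of it in ein2-5.

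The 5 synthases summed to 186 ± 1.72 CPM per kb in Col-0-Glc, 187 ± 7.29 in Col-0+Glc, 182 ± 15.8 in ein2-5-Glc and 164 ± 30.0 in ein2-5+Glc (SD, n = 3). The large subunits summed to 72.3 ± 1.73, 84.0 ± 3.99, 64.7 ± 10.1 and 75.0 ± 10.8 CPM per kb. ADG1 stood at 2.16 ± 0.0172 times that sum in Col-0-Glc, 2.47 ± 0.0631 times in Col-0+Glc, 2.42 ± 0.107 times in ein2-5-Glc and 2.22 ± 0.0699 times in ein2-5+Glc. These sums and ratios were not tested.

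**Figure D3:**
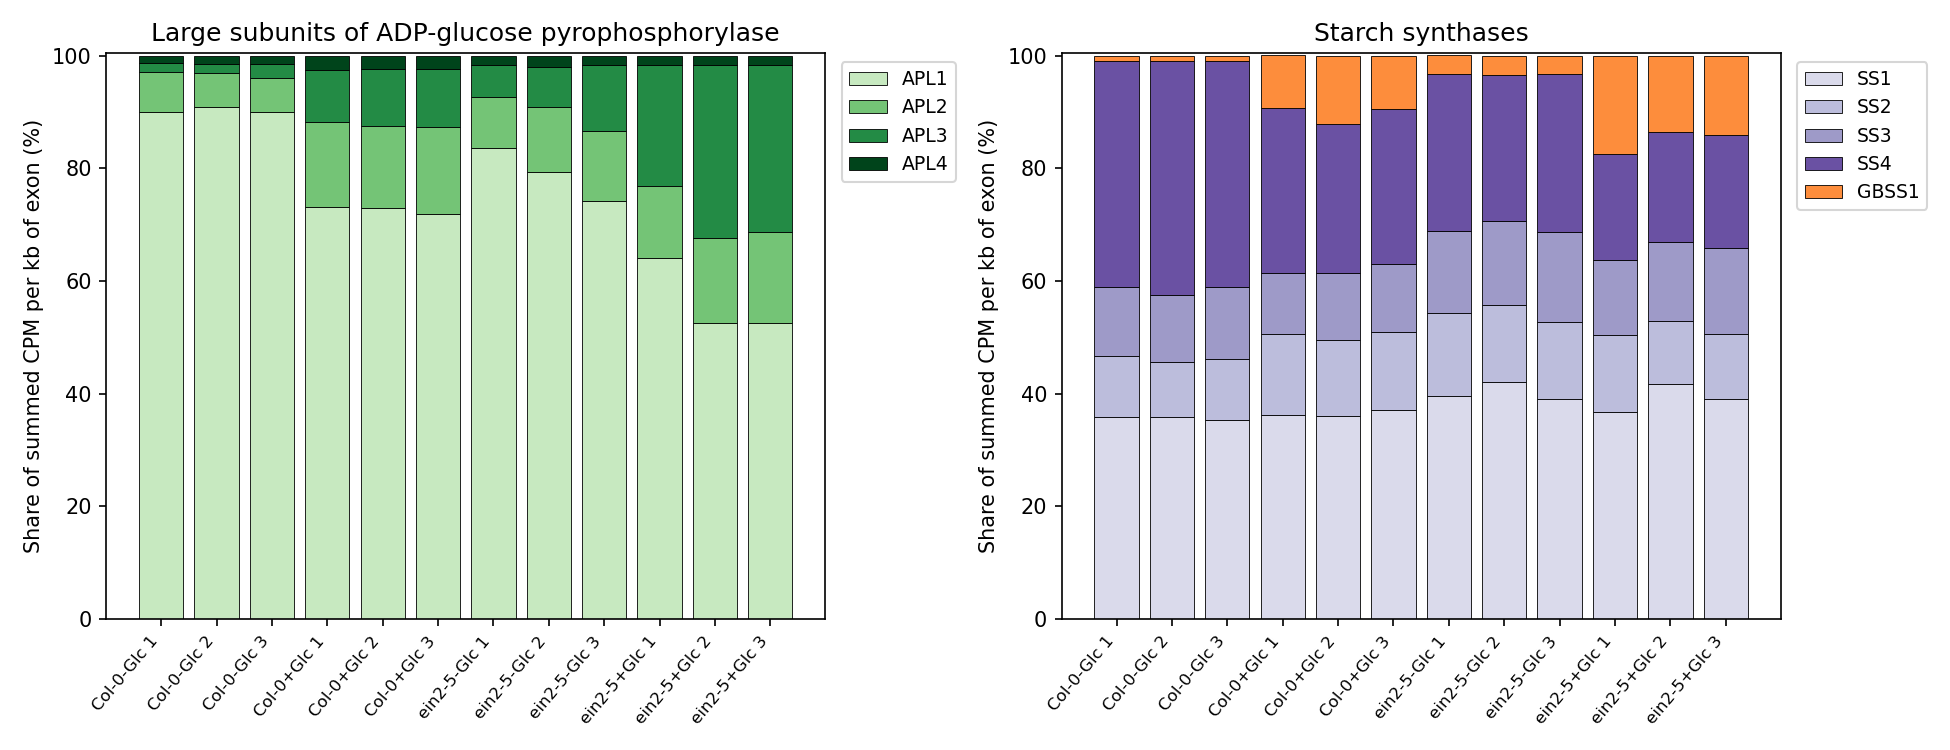
Shares of the large subunit genes (left) and of the starch synthase genes (right) in the summed CPM per kb of exon of their family, in percent, with a stacked bar for each of the 12 libraries. The mean share of APL1 was 90.3% in Col-0-Glc and 56.4% in ein2-5+Glc, and that of GBSS1 0.932% and 15.0%.

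Genes of neighbouring steps are given by list, and their counts are read against all genes, of which glucose called 40.6% higher and 19.7% lower in Col-0 (30.6% and 29.9% with TMM scaling) and 26.5% higher and 16.4% lower in ein2-5. Plastid substrate supply covers the enzymes and carriers that bring hexose phosphate and ATP into starch synthesis. Of its 7 genes, all in the table, 5 were called higher with glucose in Col-0 and 2 did not pass, the median log2 change being 0.51 (0.32 relative to all genes), and in ein2-5 4 were called higher and 3 did not pass. Of all genes 60.3% and 42.9% were called in these comparisons. With TMM scaling 4 were called higher and 1 lower in Col-0. GPT2 (AT1G61800), an importer of hexose phosphate into plastids, stood at 0.591 ± 0.237 CPM without and 58.7 ± 13.2 CPM with glucose in Col-0, and at 4.48 ± 1.37 and 76.2 ± 2.69 CPM in ein2-5 (SD, n = 3). Its log2 rise in Col-0 was 5.22 ± 0.185 (limma adjusted p = 2.66e-10). The ATP importer NTT1 (AT1G80300) rose by 1.04 ± 0.0882, GPT1 (AT5G54800), a relative of GPT2, by 0.56 ± 0.0988 and PGI1 (AT4G24620), the plastid phosphoglucose isomerase, by 0.51 ± 0.0869 (limma adjusted p = 3.81e-07, 0.000276 and 0.000204).

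Branching, debranching and granule formation held 13 genes, 12 of them in the table. With glucose in Col-0, 6 were called higher and 3 lower, where 60.3% of all genes were called (median 0.38, or 0.19 relative to all genes), and 5 higher and 4 lower with TMM scaling. In ein2-5, 3 were higher and 3 lower. The 4 genes of the list with the largest changes have no symbol in the annotation used. AT3G55760 rose in Col-0 from 6.47 ± 0.366 to 32.6 ± 4.24 CPM and AT5G39790 from 7.00 ± 0.869 to 17.3 ± 0.614 CPM (SD, n = 3). AT1G42430 fell from 108 ± 5.19 to 23.4 ± 0.994 CPM, and AT4G32190 from 36.5 ± 1.96 to 14.8 ± 2.84 CPM. Their log2 changes in Col-0 were 2.16, 1.20, −2.16 and −1.26 (limma adjusted p = 1.27e-08, 2.25e-06, 5.76e-08 and 3.02e-05).

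Starch breakdown held 17 genes, all in the table. Of these 10 were called higher and 2 lower with glucose in Col-0, where 60.3% of all genes were called (median 0.43, or 0.24 relative to all genes), 8 and 2 with TMM scaling, and 5 higher and 1 lower in ein2-5. PHS2 (AT3G46970), a cytosolic glucan phosphorylase, rose in Col-0 from 230 ± 8.20 to 1060 ± 63.1 CPM, and SEX4 (AT3G52180), a phosphatase that removes phosphate from starch glucans, from 16.7 ± 0.858 to 63.6 ± 1.29 CPM (SD, n = 3). DPE2 (AT2G40840), which processes maltose in the cytosol, rose from 169 ± 1.51 to 482 ± 8.20 CPM. BAM4 (AT5G55700), a plastid protein of the beta-amylase family, fell from 76.4 ± 3.77 to 19.8 ± 0.794 CPM. The log2 changes were 2.2, 1.87, 1.51 and −1.90 (limma adjusted p = 1.14e-07, 3.15e-09, 2.59e-08 and 4.01e-08).

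The genes most like 3 of the members were ranked by Pearson r on log2(CPM + 1) over the 12 libraries, among 7415 genes with a symbol and a group mean of at least 5 CPM. The libraries form 4 groups and share their treatment, so r describes a common pattern and no p is given. Nearest to GBSS1 were UGP1 (r = 0.994), RHM1 (0.992) and MAT3 (0.99). Nearest to APL3 were MPPalpha (0.995), RFNR1 (0.993) and the microRNA gene MIR159b (0.991), and nearest to ADG1 were LACS9 (0.969), POM1 (0.966) and PDV2 (0.962). UGP1, for example, had group means of 75.4, 171, 118 and 192 CPM in Col-0-Glc, Col-0+Glc, ein2-5-Glc and ein2-5+Glc, the order of the groups seen for GBSS1.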

How the data were processed

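The sources were 12 messenger RNA libraries, 3 for each of 4 groups, in a single table of 19522 genes. Reads were aligned with TopHat and counted with HTSeq on TAIR10, per the submitters' processing notes, with no version, strand setting or normalization given. The deposited values are in CPM, a unit read from the values, and 100% of the 234264 values were whole reads within 0.01 reads, so depth was recovered as 11470134 to 17461274 reads. A gene at 3 reads had 0.172 to 0.262 CPM, which covers counting error only. No listed gene stayed below 1.063 CPM in all libraries. The unit and table were those planned for.

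Changes were tested with limma-trend (limma 3.58.1, R 4.3.3) on log2(CPM + 1), all 12 libraries in a single fit of group means with 8 residual degrees of freedom, no filter and no replicate block, with Benjamini-Hochberg adjustment over all genes and a threshold of 0.05. The script was tested on simulated data. Whether libraries of a group are separate cultures is not labelled, so p-values measure the spread between libraries, which may be technical. Alternatives were pseudocounts of 0.25 and 5, a filter at a mean of 1 CPM, TMM and DESeq2 size factors, edgeR 4.0.16 and DESeq2 1.42.0 on recovered reads, only the groups compared, a replicate block, each library left out in turn, and the 3 set-aside libraries left out. That last setting leaves ein2-5+Glc with 1 library, which is taken to vary like the others. Deviations of same-numbered libraries correlated at 0.569, 0.132 and 0.427 between the ein2-5 groups and at 0.163, −0.065 and 0.353 between the Col-0 groups, so a block of the ein2-5 libraries was added after the data were seen.

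Shares used CPM per kilobase of RefSeq exon. Coordinates, symbols and sequences came from RefSeq TAIR10.1, which matched 19352 loci and missed 170. Of each further list up to 4 genes with the largest called change in Col-0 or in the difference of responses are named, and for GBSS1, APL3 and ADG1 the 3 most similar genes. All other list genes with a called difference of responses were added after seeing the data. The members and lists were chosen with earlier results of these data known. No value column was left unused.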

Additional observations from a re-analysis of the deposited data

Results flagged for a closer look

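The glucose responses of 4 starch synthesis genes differed between the genotypes in the interaction test of limma (ein2-5 minus Col-0, log2): GBSS1 by −1.26, SS2 by −0.79, APL2 by −0.77 and APL4 by −0.73. In the neighbouring steps the test called 4 of 12 genes of branching and granule formation, 2 of 7 of substrate supply and 6 of 17 of breakdown, against 18.8% of all genes. The differences in the first list were −0.78 for AT5G39790, 1.10 for AT1G42430, −1.38 for AT3G55760 and −0.78 for DBE1. Among substrate supply genes they were −1.37 for GPT2 and −0.48 for NTT1. Among breakdown genes they were −0.75 for SEX4, 0.91 for BAM4, −0.72 for DPE2, −1.01 for PHS2, 0.72 for BAM1 and −0.49 for ISA3. DBE1, BAM1 and ISA3 lie outside the naming rule and were added after their values were seen.

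Without the set-aside libraries GBSS1, SS2 and APL4 lost their calls (−0.75, −0.37 and −0.52, limma adjusted p = 0.0624, 0.226 and 0.181), and APL2 was the one member still past the threshold. NTT1, AT5G39790, DPE2, PHS2, BAM1 and ISA3 lost theirs as well (−0.42, −0.77, −0.50, −0.56, 0.54 and −0.45, limma adjusted p = 0.12, 0.0551, 0.0518, 0.0536, 0.0762 and 0.065). For all 9 genes these are the highest adjusted p over the alternatives. With TMM scaling NTT1 was not past the threshold either (−0.33, limma adjusted p = 0.0878, 0.0142 to 0.12 over the alternatives). GPT2 lost its call with a pseudocount of 5 (−0.38, limma adjusted p = 0.184, the highest over its alternatives).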

How the results depend on the processing

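The called glucose responses of GBSS1, APL2, APL3 and SS4 in both genotypes and of APL4 in Col-0 kept direction and call under every alternative run. Depth limits APL4 and APL3 most, at 33 to 102 and 35 to 637 reads.

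Without the set-aside libraries the share of all genes called was 22.6% for glucose in ein2-5, 21.7% for the genotypes with glucose and 9.29% for the difference of responses, and 3 and 1 members were called in the last pair of comparisons. The share of SS2 then moved by 1.64 points. The log2 values that changed sign were SS2 0.07 and APL1 0.13 for glucose in ein2-5, SS1 0.09 and SS2 0.04 for the genotypes with glucose, and SS3 0.02, SS4 0.12, APL1 0.24 and PGI1 0.03 for the difference. The cause was not tested.

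With TMM scaling, DESeq2 size factors, edgeR and DESeq2 in turn, SS1 turned to −0.18, −0.19, −0.18 and −0.19 for glucose in Col-0 and to −0.04, −0.04, −0.03 and −0.04 for the genotypes without glucose. The difference of responses turned to 0.05, 0.04, 0.05 and 0.04 for SS4 and to 0.03, 0.02, 0.03 and 0.02 for PGI1. With a pseudocount of 5 that of APL3 turned to 0.09. In CPM not divided by length, the share of SS1 moved by 1.17 points. None of these values was past the threshold as reported.

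Leaving out single libraries, 4 to 8 members were called for glucose in ein2-5 (8 without ein2-5+Glc 1) and 3 to 6 for the genotypes with glucose (3 without Col-0+Glc 1 or ein2-5+Glc 2). Ranges that crossed 0 were −0.03 to 0.21 for ADG1 and −0.0042 to 0.15 for APL4 with glucose in ein2-5, −0.10 to 0.04 for ADG1 between genotypes without glucose, and −0.20 to 0.01 for SS1 and −0.0046 to 0.15 for SS3 with glucose. The share of SS1 ran from −0.808 to 0.44 points and that of SS3 from −1.12 to −0.62, called without ein2-5+Glc 3 (exact permutation, adjusted p = 0.045).

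With the replicate block over all 12 libraries, the members called were 7, 6, 7, 6 and 4 in the order of the comparisons, against 7, 5, 5, 6 and 4 without it. Added calls were SS2 in ein2-5 with glucose (limma adjusted p = 0.0164), and SS2 and APL1 between genotypes without glucose (limma adjusted p = 0.0121 and 0.0262). The block changed no other call of a member.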
